A study of Mus musculus with 4 samples.

Results

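Mitochondrial ribosomal proteins were taken as every gene of the expression table whose symbol is Mrpl or Mrps followed by a number and, at most, a letter from a to c. The rule found 78 of the 54446 genes listed, 49 named for the large subunit (Mrpl) and 29 named for the small subunit (Mrps). It used the names alone and no measured value. The data are bulk RNA sequencing of mammary gland epithelial cells from wild type C57BL/6 mice, which were sorted by flow cytometry on CD24 and CD29 as basal or luminal cells, embedded in Matrigel and grown as 3-dimensional cultures. Each label was cultured with the solvent DMSO or with 100 μM baicalin, a flavonoid from Scutellaria roots, and each of the 4 combinations is 1 library. The methods give an age of 6 to 9 weeks for female donors of primary mammary cells in general, and the number of mice behind each library was not given in the sources used here. With 1 library per group no difference has a replicate check, so no p-value is given, and the 95% intervals below are Clopper-Pearson intervals on sequenced fragments that cover counting error only. In bulk RNA, fewer cells of a type and less RNA per cell cannot be told apart.

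The mitochondrial ribosome translates the few proteins that the mitochondrial genome encodes, all of them subunits of the respiratory chain and ATP synthase. All of its proteins are nuclear products made on cytosolic ribosomes and imported, while its ribosomal RNAs come from mitochondrial DNA. Compared with its bacterial ancestor it has gained many proteins of its own, particularly around the central protuberance of the large subunit, the exit tunnel that faces the inner membrane and the mRNA channel of the small subunit. In the mammary gland, mitochondrial content and oxidative capacity are known to grow as the epithelium prepares for lactation.

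Symbols do not follow structure in every case. Mrps30 and Mrps18a belong to the large subunit of the assembled particle, and Mrps36 is known as a component of the 2-oxoglutarate dehydrogenase complex. The name rule also leaves out 5 accepted subunits with unrelated symbols, Dap3, Ptcd3, Aurkaip1, Chchd1 and Gadd45gip1, which are given further below.

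The 4 libraries held between 19356060 and 20648787 fragments assigned to genes. All 10 basal marker genes, such as Acta2 and Trp63, were higher in the luminal-labelled library than in the basal-labelled one under both treatments. All 10 luminal markers, such as Cldn3 and Ehf, were higher in the basal-labelled libraries. Of 6 genes of hormone-sensing luminal cells, however, 4 were higher in the luminal label under DMSO, among them Pgr at 4.81 against 1.08 FPKM and Foxa1 at 9.30 against 1.80 FPKM, and 3 were higher there under baicalin. The basal and luminal lists therefore go against the cell labels and the hormone-sensing list is divided, and the groups are called here "labelled basal" and "labelled luminal" only as the submitters named them. The summed level of 6 immune genes was 16.5, 54.1, 5.90 and 19.6 FPKM in the order basal DMSO, basal baicalin, luminal DMSO and luminal baicalin. Cd68, at 51.5 FPKM under baicalin in the basal label, was the main source except in basal DMSO. There Lyz2 had 8.84 FPKM and Cd68 7.49 FPKM. The leukocyte gene Ptprc was at 0.0138 FPKM or below in every library. The summed level of 6 fibroblast genes lay between 2.60 and 10.4 FPKM, and that of 4 adipocyte genes was 0.163, 0.884, 15.6 and 5.29 FPKM in the same order. Within the basal label the summed level of the 10 basal markers was 1761 FPKM under DMSO and 479 FPKM under baicalin, with Krt5 at 128 and 3.01 FPKM, and within the luminal label it was 5404 and 7199 FPKM. The summed level of the 10 luminal markers was 4312 and 2995 FPKM in the basal label and 1261 and 1070 FPKM in the luminal label. The part of these differences between libraries in the results below was not tested.

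Of the 78 genes, 77 were above 0 in every library. The exception was Mrpl53 (chr6:83109040-83109939), a stalk protein listed at 0 in all 4 libraries. Its 0 recovered fragments in each still allow an expected count of up to about 3. Of its 790 exonic bases, 695 lie in exons of Gm42688 and Ccdc142os on the same strand. The other 77 were expressed well above the typical gene. Their median was 11.6, 11.3, 11.1 and 10.2 FPKM in basal DMSO, basal baicalin, luminal DMSO and luminal baicalin, against medians of 3.67, 3.69, 3.78 and 3.67 FPKM over the 17787 genes above 0 in every library. Together they made up 0.389%, 0.366%, 0.351% and 0.325% of the summed FPKM, a share that was lower under baicalin in each label and lower in the luminal label under each treatment. Their own sums were 1069, 1032, 1041 and 960 FPKM. These differ less between labels than the shares, which also depend on the levels of all other genes.

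On the FPKM scale, large subunit genes had higher levels than small subunit genes in all 4 libraries. The median Mrpl gene had 14.8, 13.2, 13.2 and 12.8 FPKM, while the median Mrps gene had 8.85, 8.48, 7.72 and 7.74 FPKM. The ratio of the subunit medians stayed between 1.56 and 1.71, and the ratio of the subunit sums between 2.03 and 2.14. The interquartile ranges of the subunits overlapped, and the single highest gene belonged to the small subunit. In fragments, which are not divided by exonic length, the medians were closer. They were 611, 597, 596 and 593 for Mrpl and 522, 555, 453 and 484 for Mrps. FPKM of these genes is related to exonic length, as given below, and its part in the contrast was not tested.

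Mrps21 (chr3:95862634-95871519), which encodes a small subunit protein of bacterial origin, had 67.4, 57.6, 63.1 and 53.6 FPKM and ranked first in every library. Mrpl24 (chr3:87919506-87923672), a large subunit protein at the exit tunnel, followed with 35.6, 43.6, 44.2 and 38.1 FPKM. Mrpl12 (chr11:120484613-120489065), the stalk protein that recruits translation factors and is also known to bind the mitochondrial RNA polymerase, had 35.1, 25.6, 37.4 and 33.1 FPKM. The next on the mean of the 4 libraries were Mrpl18 with a mean of 28.6 FPKM and Mrpl28 with a mean of 25.5 FPKM. These genes are highest on a per-length scale and do not overlap in range with the genes at the bottom of the order.

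The lowest means belonged to Mrps35 with 3.04 FPKM, Mrpl57 with 3.15 FPKM, Mrpl47 with 3.21 FPKM, Mrpl33 with 3.45 FPKM and Mrps25 with 3.59 FPKM. In this low end, neighbours in the order differed by less than their range over the libraries. Mrps35 had 3.05, 2.90, 3.45 and 2.75 FPKM and Mrpl57 had 2.85, 3.47, 2.62 and 3.65 FPKM. The level on this scale was related to the length of the annotated gene model, with a Spearman rho of -0.76 between exonic length and mean FPKM across the 77 genes, which share libraries and are not independent. Exonic lengths ran from 607 to 8631 bases, and 7326 bases are counted for Mrpl33, a gene with a very short protein. The order of the genes was nearly the same in every library, with Spearman rho between 0.94 and 0.98 for the 6 pairs of libraries.

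**Figure D1:**
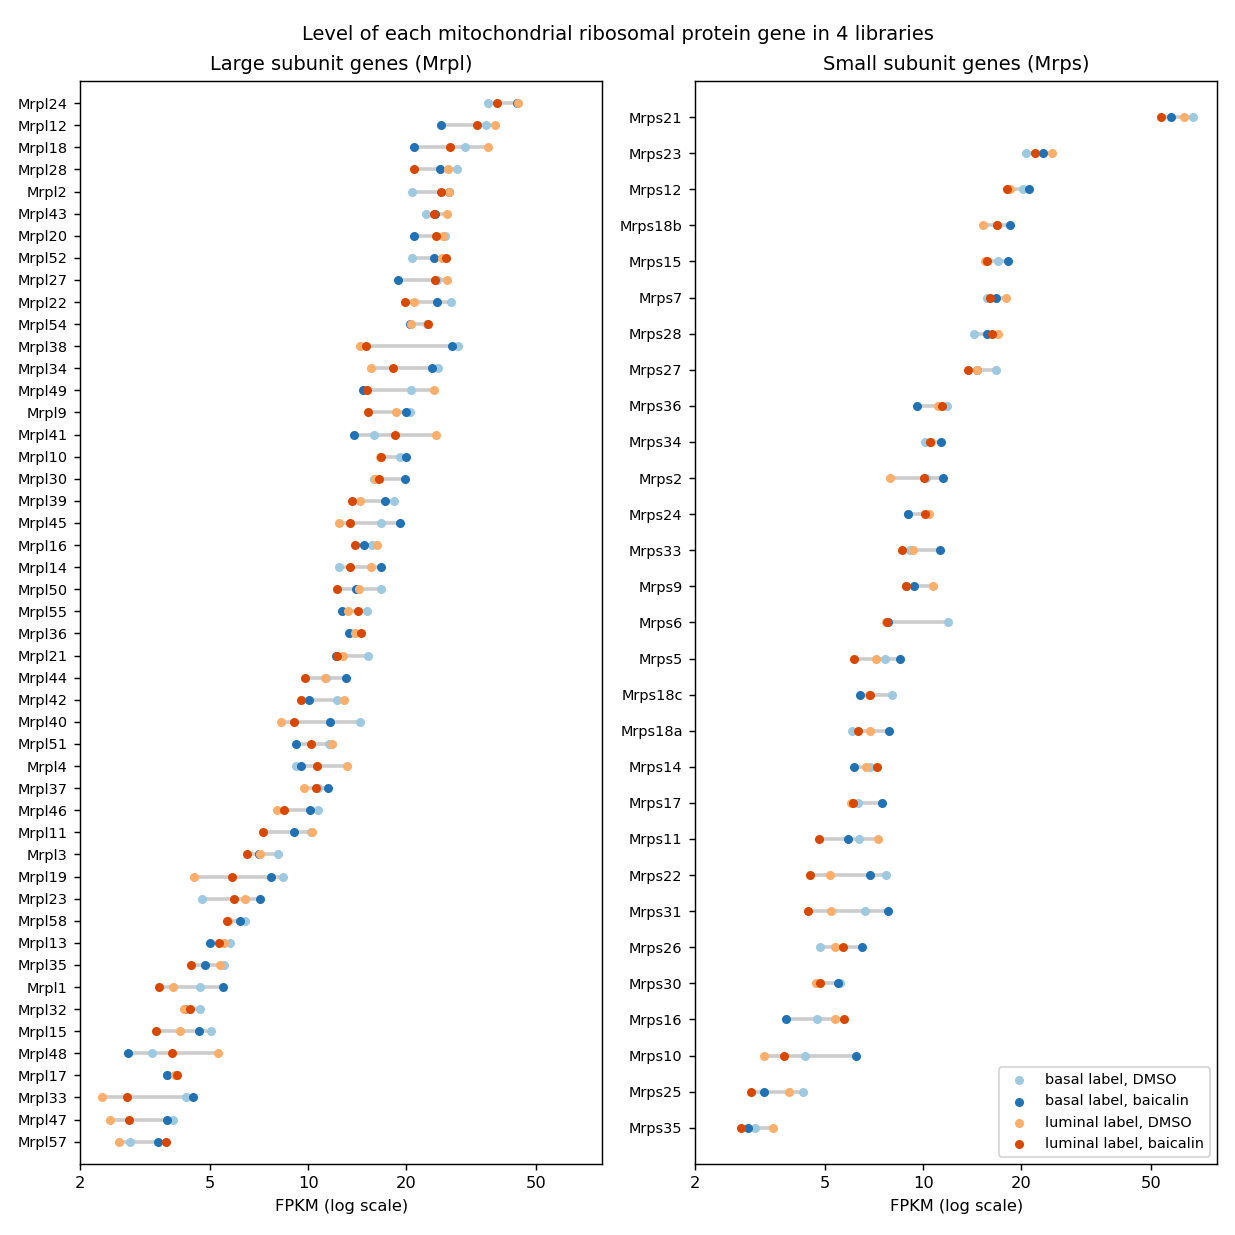
Level of 77 mitochondrial ribosomal protein genes in 4 libraries, Mrpl genes at left and Mrps genes at right, in FPKM on a log axis. Each point is 1 library, grey lines join the lowest and highest library, and genes are ordered by mean level. Most genes span less than 1.5-fold over the 4 libraries, and Mrpl38 spans the most, with 14.4 to 28.9 FPKM.

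Variation across the study was small for this family. The highest library exceeded the lowest by a median of 1.31-fold over the 77 genes, and by more than 1.5-fold for 19 of them. Only Mrpl38 exceeded 2-fold, at 2.01. Over all 17787 genes the median was 1.96-fold, 12579 exceeded 1.5-fold and 48.9% exceeded 2-fold, although that set holds many genes with few fragments. Over the 6643 genes with at least 5 FPKM in every library the median was 1.44-fold, 2887 exceeded 1.5-fold and 16.6% exceeded 2-fold. The narrowest ranges were those of Mrpl17, an exit tunnel protein, with a ratio of 1.08, and Mrpl36, with a ratio of 1.09.

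The genes lie on 17 chromosomes, with 11 on chromosome 11 and 8 on chromosome 17. A shared feature that the names do not use is the arrangement of their starts. For 33 of the 78 genes (42.3%) a protein-coding gene on the opposite strand starts within 1000 bases, against 10.8% of 22011 protein-coding genes. Mrps11 and Mrpl46, which encode proteins of different subunits, are such neighbours of each other, with starts 412 bases apart. Other neighbours include Ndufs6 of respiratory complex I beside Mrpl36, Twnk, the mitochondrial DNA helicase, beside Mrpl43 and Sars2, the mitochondrial seryl-tRNA synthetase, beside Mrps12.

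Promoter windows of 300 bases, from 250 before to 50 after the RefSeq start on GRCm38.p6, were available for 69 of the 78 genes and numbered 75. Letters bound by NRF1, a regulator of nuclear genes for mitochondria (its consensus motif of 10 letters, searched on both strands as all others), were found in 17.3% of the windows, against 6.38% of 21263 windows of protein-coding genes. They were in 20.8% of Mrpl windows and 11.1% of Mrps windows. The ETS letters CCGGAAG, to which the GABP factor binds, were in 34.7% of the windows against 11.6%, and the YY1 letters AAGATGGCG in 10.7% against 1.83%. The 66 windows of cytosolic ribosomal protein genes had shares of 36.4% for the ETS letters, 7.58% for the YY1 letters and 7.58% for the NRF1 letters, the first of these close to the share of the mitochondrial ribosome. Matches of different motifs may share bases of a window, which was not counted. Other letters were at shares closer to those of all protein-coding windows. The SP1 letters GGGCGG were in 52.0% against 46.2%, the NF-Y letters CCAAT in 40.0% against 38.2%, the E-box CACGTG in 9.33% against 7.84% and the antioxidant response letters TGACNNNGC in 18.7% against 13.0%. TATAAA was in 6.67% against 12.6%, and the ATF4 letters TGATGNAAN were in 0 of 75 windows against 3.58%. The median GC content was 58.7% in these windows and 56.3% in the protein-coding ones. A match describes letters only, and binding was not measured.

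The 250 bases before the RefSeq start are printed for the 3 genes of highest level, together with Mrpl45, the membrane anchor of the particle, whose window held the most NRF1 matches, 3 in all, with the third after the start. Capitals mark NRF1, ETS or YY1 letters on either strand, and each sequence is written 5′ to 3′ along the strand of the gene, from RefSeq on GRCm38.p6. The positions are chr3:95871515-95871764 on the minus strand, chr3:87919294-87919543 on the plus strand, chr11:120484387-120484636 on the plus strand and chr11:97315466-97315715 on the plus strand, in the order printed.
Mrps21: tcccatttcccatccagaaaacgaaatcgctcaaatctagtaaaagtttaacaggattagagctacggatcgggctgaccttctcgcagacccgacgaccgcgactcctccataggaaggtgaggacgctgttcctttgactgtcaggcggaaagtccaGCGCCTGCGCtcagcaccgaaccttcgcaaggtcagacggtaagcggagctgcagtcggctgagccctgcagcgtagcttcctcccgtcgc
Mrpl24: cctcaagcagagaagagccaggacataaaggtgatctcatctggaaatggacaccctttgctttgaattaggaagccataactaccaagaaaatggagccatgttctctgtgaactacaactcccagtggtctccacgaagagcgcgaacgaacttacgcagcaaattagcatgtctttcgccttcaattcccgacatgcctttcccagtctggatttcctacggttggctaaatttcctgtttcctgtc
Mrpl12: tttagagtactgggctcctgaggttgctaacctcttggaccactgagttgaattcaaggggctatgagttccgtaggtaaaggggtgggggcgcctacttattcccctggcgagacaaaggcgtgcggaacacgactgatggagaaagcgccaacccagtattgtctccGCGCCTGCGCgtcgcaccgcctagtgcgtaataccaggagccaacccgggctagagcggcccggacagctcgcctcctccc
Mrpl45: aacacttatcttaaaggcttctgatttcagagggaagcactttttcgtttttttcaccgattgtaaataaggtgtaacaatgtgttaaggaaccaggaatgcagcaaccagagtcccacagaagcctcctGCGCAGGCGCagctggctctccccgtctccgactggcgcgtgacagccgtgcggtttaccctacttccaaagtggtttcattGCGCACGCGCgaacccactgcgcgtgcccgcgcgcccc
Mrps21 and Mrpl12 each carry 1 NRF1 match upstream of the start. The Mrpl24 stretch carries none of these letters even though its level ranks second in every library.

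**Figure D2:**
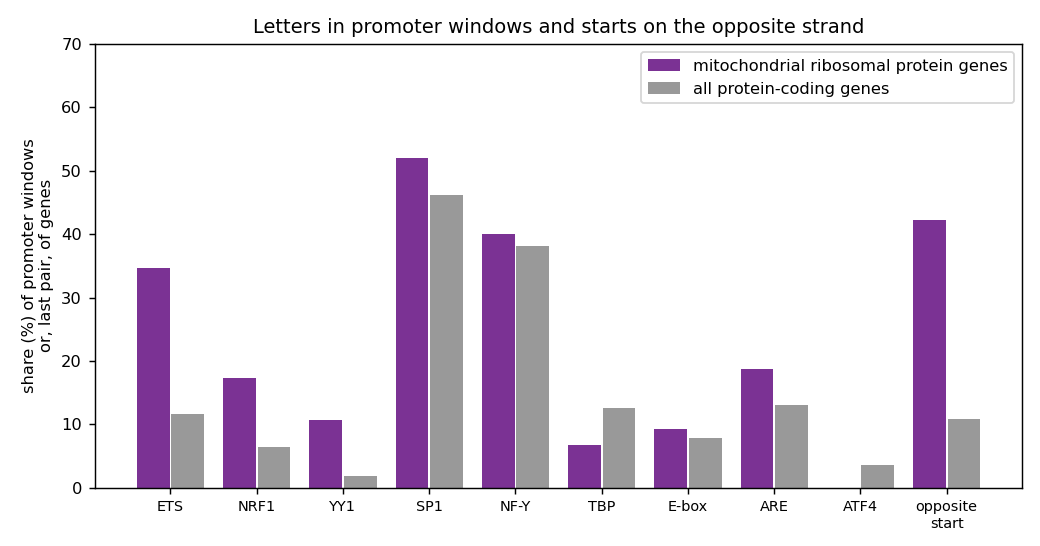
Share of promoter windows that hold each set of letters, and, in the last pair of bars, share of genes with a protein-coding start on the opposite strand within 1000 bases. Purple bars are mitochondrial ribosomal protein genes (75 windows, 78 genes) and grey bars all protein-coding genes (21263 windows, 22011 genes). NF-Y marks CCAAT and TBP marks TATAAA. The ETS, NRF1 and YY1 pairs and the last pair differ most, with 42.3% against 10.8% for the opposite starts.

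In cells labelled basal, the mitochondrial ribosomal protein genes differed little between baicalin and DMSO, and the 2 subunits leaned in different directions. The median change over the 48 expressed Mrpl genes was -0.09 and that over the 29 Mrps genes was 0.08, as log2 of the ratio of FPKM + 1, which understates the change of low genes. The median of all 17787 genes was 0.01. Of the Mrpl genes, 15 of 48 were higher under baicalin, and of the Mrps genes 17 of 29, or 32 of 77 in all, where 50.9% of all genes were higher. Past a log2 change of 0.5, 1 gene was higher and 1 was lower, against 9.71% of all genes higher and 9.54% lower. None passed 1 in either direction, against 5.48% of all genes. The counting interval of the FPKM ratio lay above 1 for 18 members, against 28.1% of all genes, and below 1 for 22 members, against 26.3%, and it held 1 for the other 37.

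The gene past 0.5 on the higher side was Mrpl23 (chr7:142532686-142540747), an exit tunnel protein, with 4.72 FPKM under DMSO and 7.12 FPKM under baicalin in the basal label and 6.41 and 5.93 FPKM in the luminal label. Its basal ratio was 1.51 (95% counting interval 1.34 to 1.70). The basal DMSO library was therefore the lowest of the 4 and the basal baicalin library the highest. Next were Mrps10, a protein of the small subunit head, with a log2 change of 0.44, Mrpl14 with 0.40, Mrps26 with 0.37 and Mrpl2, which lies by the peptidyl transferase centre, with 0.36. For Mrpl2 the levels were 20.8, 27.1, 27.0 and 25.6 FPKM, with the basal DMSO library as the low one. Near-identical stretches (at least 95% over 200 bases) stand in 1 other gene each for Mrpl23 and Mrps10 and in 26 for Mrps26. Mrpl14 and Mrpl2 have none. The part of such copies in these values was not tested.

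The gene past 0.5 on the lower side was Mrps6 (chr16:92058270-92112227), with 11.9 FPKM under DMSO and 7.78 FPKM under baicalin, a ratio of 0.654 (0.554 to 0.772). In both luminal-labelled libraries it had 7.72 and 7.74 FPKM, so the basal DMSO library alone was high. Of its exonic bases 19.9% overlap Slc5a3 and Gm49711 on the same strand. Mrpl18 (chr17:12911349-12916345), the partner of 5S rRNA in bacterial ribosomes, had 30.2 and 21.2 FPKM, a ratio of 0.70 (0.629 to 0.778). Mrpl49 followed with a log2 change of -0.46, Mrpl12 with -0.44 and Mrpl27 with -0.38. The last, whose bacterial relative reaches into the peptidyl transferase centre, had 24.9 and 18.9 FPKM in the basal label, a ratio of 0.758 (0.661 to 0.869).

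In cells labelled luminal, most members were slightly lower under baicalin in both subunits. The median log2 change was -0.08 for Mrpl and -0.04 for Mrps, against -0.02 over all genes. Baicalin was the higher library for 18 of 48 Mrpl genes and 12 of 29 Mrps genes, 30 of 77 in all, where 45.6% of all genes were higher. No member passed 0.5 upward, against 8.01% of all genes, and 2 passed it downward, against 8.29%. None passed 1, against 3.95% of all genes. Counting intervals lay above 1 for 5 members, against 22.9% of all genes, and below 1 for 26, against 28.7%.

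The 2 genes were Mrpl49 and Mrps11. Mrpl49 (chr19:6053622-6057785), a large subunit protein without a bacterial counterpart, had 24.3 FPKM under DMSO and 15.2 FPKM under baicalin, a ratio of 0.626 (0.563 to 0.695). In the basal label it had 20.6 and 14.7 FPKM, a ratio of 0.712 (0.638 to 0.796), so both baicalin libraries lay below both DMSO libraries. Mrps11 (chr7:78783119-78792989), at the platform of the small subunit, had 7.28 and 4.79 FPKM in the luminal label, a ratio of 0.659 (0.551 to 0.787). Its basal-labelled libraries had 6.35 and 5.88 FPKM, with an interval of 0.778 to 1.101 that held 1. Its head-to-head neighbour Mrpl46, with which it shares 173 exonic bases, had 7.996 and 8.42 FPKM in the luminal label, with an interval of 0.874 to 1.27.

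Further down the order, Mrpl11 at the base of the stalk had a luminal log2 change of -0.45, Mrpl42 of -0.40 and Mrpl41 of -0.39. On the higher side were Mrpl57 with 0.36, Mrpl19 with 0.33, Mrps2 with 0.31, Mrpl34 with 0.21 and Mrpl33 with 0.19. Mrpl57 is among the lowest of the family, with 2.62 and 3.65 FPKM and a ratio of 1.39 (1.13 to 1.73). Mrpl19 had 4.46 and 5.86 FPKM, a ratio of 1.31 (1.16 to 1.48), but 36.0% of its exonic bases overlap Gcfc2 on the opposite strand.

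The subunits could be set side by side in both labels. Of the Mrpl genes, 22 of 48 (45.8%) were lower under baicalin in both labels and 7 were higher in both. Of the Mrps genes, 6 of 29 (20.7%) were lower in both and 6 were higher in both, while 11 (37.9%) were higher in the basal label and lower in the luminal one. Over all genes 31.4% were lower in both labels, 28.0% were higher in both, and 23.0% were higher in the basal label and lower in the luminal one. By counting intervals, 11 members lay below 1 in both labels, 9 of them Mrpl genes, and 2 Mrps genes, Mrps10 and Mrps2, lay above 1 in both, against 13.8% of all genes below 1 in both and 11.5% above. The interval lay above 1 in the basal label and below 1 in the luminal label for 4 members, against 5.4% of all genes, and the reverse held for 0 members, against 5.21%. The shares of 11 and 4 of 77 are near those of all genes. Members hold more fragments than the typical gene, with medians of 559 and 266 in basal DMSO, and more fragments narrow an interval. Among genes with at least 5 FPKM in every library, 21% lay below 1 in both labels and 17.9% above. In that set 7.2% lay above 1 in the basal and below 1 in the luminal label, and 8.1% the reverse. The shares of the members lie below all 4 of these. The difference between the subunit medians, Mrps minus Mrpl, was 0.16 in the basal label and 0.04 in the luminal label. No replicate error can be given for these differences.

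**Figure D3:**
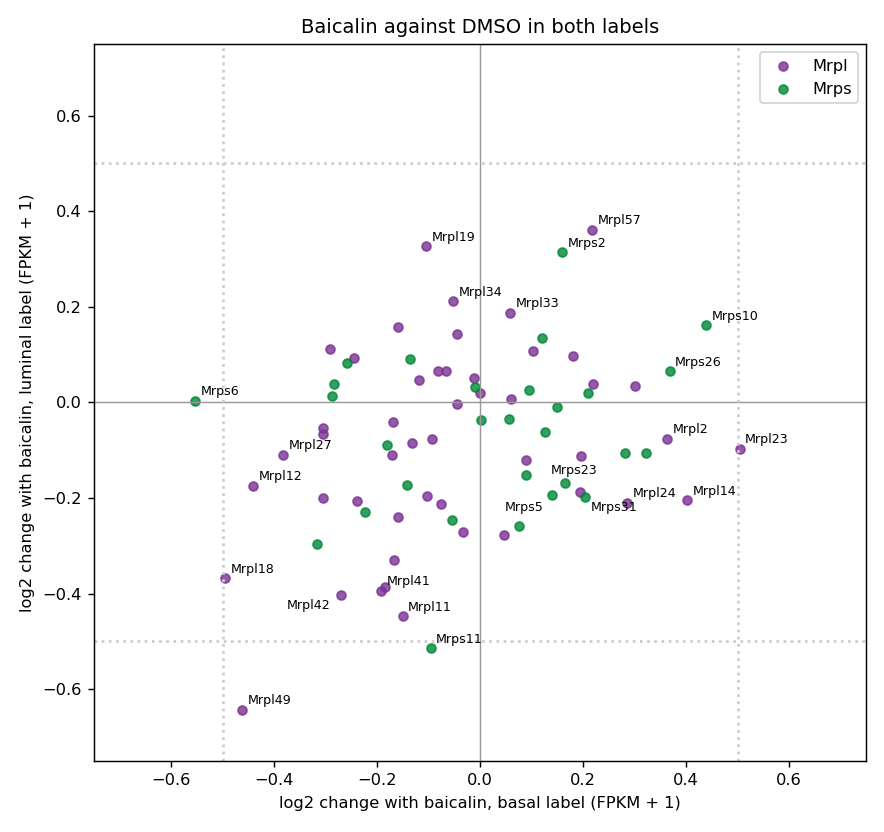
Log2 change with baicalin in the basal label (horizontal) and in the luminal label (vertical) for 77 genes, on FPKM + 1, with 1 library per group. Purple points are Mrpl genes, green points are Mrps genes, and dotted lines mark 0.5. Only Mrpl23 and Mrps6 pass 0.5 along the horizontal axis, and Mrpl49 and Mrps11 along the vertical one.

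Structural neighbours were compared next, since proteins of a module assemble together. The central protuberance, the crown of the large subunit, was the module with the most uniform values in the basal label. All 8 of its genes were lower under baicalin there, with a median of -0.21, where 50.9% of all genes were higher. For 5 of the 8 the interval lay below 1, against 26.3% of all genes. The module was singled out by these same values among the lists compared, so its uniformity was not tested. In the luminal label 4 were lower and 4 higher, with a median of 0.03. Besides Mrpl18 and Mrpl27, the basal-labelled libraries had 14.5 and 11.6 FPKM for Mrpl40, 15.2 and 12.7 FPKM for Mrpl55 and 3.31 and 2.79 FPKM for Mrpl48. The intervals of Mrpl38, Mrpl46 and Mrpl58, the last of which encodes a peptidyl-tRNA hydrolase that releases stalled ribosomes, held 1. Rescaling to TPM or centring on the median of all genes could not reverse the basal direction of these 8, so neither checks it. Summed FPKM was larger under baicalin (281666 against 275042) and the all-gene median was positive, which moves falling values further down.

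The 8 exit tunnel genes had a median of 0.09 in the basal label, with 4 higher and 4 lower. Of their intervals 4 lay above 1 and none below, against 28.1% of all genes above and 26.3% below. Mrpl23, Mrpl24, Mrpl44 and Mrpl45 were the 4 on the higher side. In the luminal label the median was -0.08, with 1 interval below 1, against 28.7% of all genes. Of the stalk genes, 4 were measurable, and 3 of these were lower in the basal label, with Mrpl12 the lowest at -0.44. Bacterial homologues and mitochondria-specific proteins of the large subunit had medians of -0.09 and -0.07 in the basal label and -0.09 and -0.04 in the luminal label. In the small subunit the same classes had medians of 0.07 and 0.14 in the basal label and -0.02 and -0.14 in the luminal label. Of these 4 classes, the mitochondria-specific small subunit proteins had the medians that lay furthest apart between the labels. In this class 6 of 10 were higher in the basal label and 8 of 10 lower in the luminal label. Over all genes 50.9% and 45.6% were higher in the basal and the luminal label.

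The 3 paralogues of Mrps18 did not share a direction. Mrps18a, of the large subunit, had 6.06, 7.83, 6.87 and 6.31 FPKM, with a basal ratio of 1.29 (1.14 to 1.46). Mrps18b had 16.9, 18.4, 15.2 and 16.8 FPKM, with intervals that held 1 in both labels. Mrps18c had 8.05, 6.41, 6.82 and 6.89 FPKM, with a basal ratio of 0.797 and an interval that held 1 (0.633 to 1.002). Mrps30 had 5.54, 5.50, 4.69 and 4.82 FPKM, level within each label. Mrps36, the dehydrogenase component, had 11.9, 9.56, 11.1 and 11.4 FPKM, with the basal baicalin library the low one.

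Between labels under DMSO, the luminal-labelled library had the lower level for most members, and the largest differences in the family appeared here. The median log2 difference, luminal minus basal, was -0.07 for both Mrpl and Mrps against 0.01 over all genes. The luminal label was higher for 20 of 48 Mrpl genes and 12 of 29 Mrps genes, 32 of 77 (41.6%) in all, against 52.5% of all genes. Among the 6643 genes with at least 5 FPKM in every library, which are nearer to the members in level, 45.3% were higher and the median was -0.05, close to the members. Past 0.5, 2 members were higher, against 14.2% of all genes, and 6 were lower, against 12.3%. None passed 1, against 8.56%. Intervals lay above 1 for 15 members, against 30.5% of all genes, and below 1 for 25, against 30.2%.

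Mrpl38 (chr11:116131817-116138868), of the central protuberance, had 28.9 and 27.6 FPKM in the basal-labelled libraries and 14.4 and 15.1 FPKM in the luminal-labelled ones. The labels therefore did not overlap for this gene, while baicalin and DMSO hardly differed within either. The luminal over basal ratio was 0.498 (0.454 to 0.545) under DMSO and 0.548 (0.502 to 0.598) under baicalin. Mrpl33 had 4.23, 4.44, 2.33 and 2.79 FPKM, with label ratios of 0.55 (0.480 to 0.630) and 0.628 (0.555 to 0.711). For Mrpl19 the DMSO ratio was 0.533 (0.476 to 0.597), for Mrpl40 it was 0.572 (0.492 to 0.663) and for Mrpl34 it was 0.624 (0.516 to 0.752). Mrps6 was the other member past 0.5, with a ratio of 0.649 (0.547 to 0.768), which again rests on its high basal DMSO value.

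Higher in the luminal label under DMSO were Mrpl41, with a log2 difference of 0.60, and Mrpl48, with 0.55, followed by Mrpl4 with 0.48, Mrpl23 with 0.37 and Mrpl2 with 0.36. Mrpl41 (chr2:24974117-24975098) had 15.9, 13.8, 24.6 and 18.5 FPKM, and both luminal-labelled libraries lay above both basal-labelled ones. Mrpl48 (chr7:100545751-100608301) had 3.31, 2.79, 5.30 and 3.83 FPKM, and its labels did not overlap either. It belongs to the central protuberance like Mrpl38 and Mrpl40, whose label difference had the opposite sign. Mrpl41 and Mrpl48 each have a near-identical stretch in 1 other gene.

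Under baicalin, the luminal-labelled library was the lower one more often. The median was -0.12 for Mrpl and -0.10 for Mrps, against -0.03 over all genes. It was higher for 18 of 48 Mrpl genes and 6 of 29 Mrps genes, 24 of 77 (31.2%) in all, against 45.2% of all genes. Among the genes with at least 5 FPKM in every library 40.7% were higher and the median was -0.07. No member was higher by more than 0.5, against 12.6% of all genes, and 6 were lower, against 12.2%. None passed 1, against 8.23%. Intervals lay above 1 for 10 members, against 25.8%, and below 1 for 36, against 33.7%.

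All 10 mitochondria-specific small subunit genes were lower in the luminal label under baicalin, with a median of -0.11, whereas under DMSO 5 were lower. Under baicalin 4 of the 10 intervals lay below 1, near the 33.7% of all genes. By sign, 45.2% of all genes and 40.7% of those with at least 5 FPKM were higher in the luminal label there. Of the 8 exit tunnel genes 7 were lower in the same comparison, each with an interval below 1, and the median was -0.30. Both classes are among several lists compared, and their difference from all genes was not tested. Besides Mrpl38 at -0.83, the lowest were Mrps31 at -0.70, Mrps10 at -0.60, Mrpl1 at -0.54 and Mrpl33 at -0.52. Mrps31 (chr8:22411361-22429665), a mitochondria-specific small subunit protein, had 7.81 FPKM in the basal label and 4.43 FPKM in the luminal label under baicalin, a ratio of 0.568 (0.491 to 0.655). On the higher side were Mrps16 with 0.49, Mrpl41 with 0.39, Mrpl27 and Mrpl12 with 0.36 each and Mrpl18 with 0.35. Mrps16 had 3.79 and 5.73 FPKM, a ratio of 1.51 (1.27 to 1.80). Each of these comparisons shares libraries with 2 of the others, so their values are not independent.

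**Figure D4:**
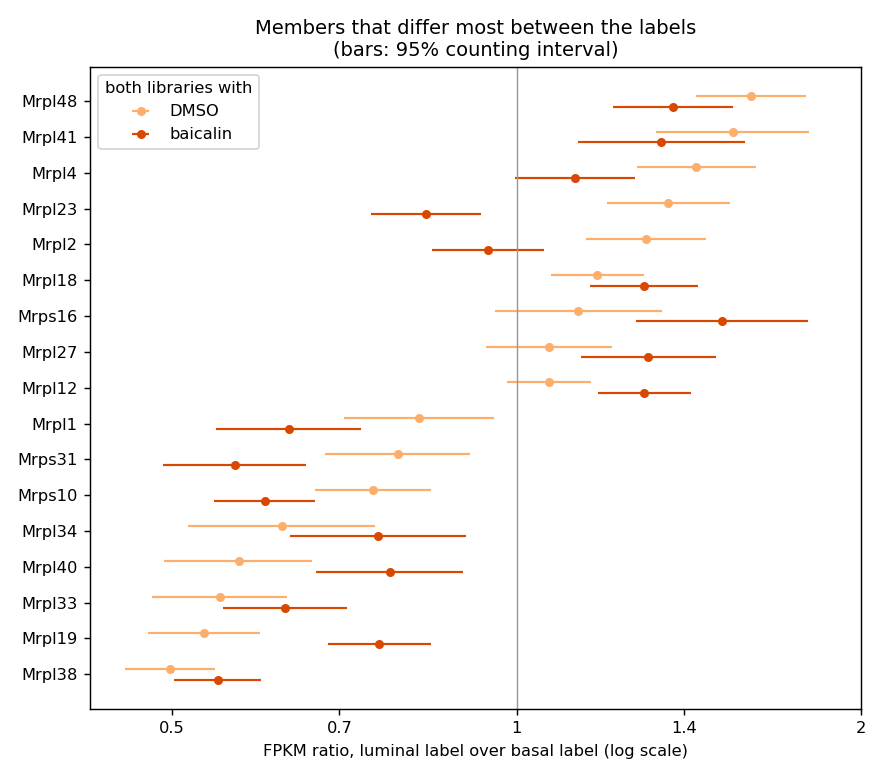
FPKM ratio of the luminal-labelled over the basal-labelled library, on a log axis, for the members named in the label comparisons. Light points are DMSO libraries, dark points are baicalin libraries, and bars are 95% counting intervals. Mrpl38, at 0.498 and 0.548, lies furthest to the left and Mrpl48 and Mrpl41 lie to the right of 1 under both treatments.

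Of the 5 mitoribosome proteins with other names, most were also slightly lower. Under baicalin 4 of 5 were lower in the basal label and 4 of 5 in the luminal label, with medians of -0.05 and -0.03. Over all genes 50.9% and 45.6% were higher, with medians of 0.01 and -0.02. Gadd45gip1, of the large subunit, had 6.75 and 5.02 FPKM in the basal label, and Dap3, a GTP-binding protein of the small subunit, had 9.52 and 6.96 FPKM in the luminal label. Ptcd3 had 11.4, 9.41, 9.86 and 8.68 FPKM.

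Of the 24 assembly factors and rRNA modifying enzymes of the mitochondrial ribosome, 17 were above DMSO in the basal label, with a median of 0.11. Of all genes, 50.9% were higher there. The 2 largest were Mrm1, a methyltransferase for the large rRNA, with 2.48 and 4.49 FPKM, and Ngrn, needed for its stability, with 9.02 and 13.6 FPKM. In the luminal label 11 of 24 were higher, against 45.6% of all genes, with a median of -0.03, and Mrm1 and Ddx28 had log2 changes of 0.48 each. Between labels under baicalin, 21 of 24 were lower in the luminal label, with a median of -0.35, where 45.2% of all genes were higher. The difference of this list from all genes was not tested. For mitochondrial translation factors, 16 of 17 were matched, and 7 were lower in the basal label and 13 in the luminal label, with medians of 0.01 and -0.14. The all-gene shares of higher genes are again 50.9% and 45.6%. Slirp, an RNA-binding partner of Lrpprc, had 7.55 and 5.13 FPKM in the basal label, and Mtif2, the initiation factor, had 13.0 and 9.81 FPKM. In the luminal label Mtrf1l had a log2 change of -0.41 and Pde12 also of -0.41. Taco1, a translational activator of Cox1, differed most between labels, with 9.72 and 10.9 FPKM in the basal label and 5.04 and 4.797 FPKM in the luminal label.

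The ribosomal RNAs of the particle had higher values under baicalin in both labels. mt-Rnr1, the small subunit rRNA, was listed at 128 FPKM under DMSO and 591 FPKM under baicalin in the basal label and at 107 and 294 FPKM in the luminal label. mt-Rnr2, the large subunit rRNA, had 353 and 823 FPKM in the basal label and 337 and 423 FPKM in the luminal label. Both are measured after oligo(dT) selection, so these values depend on how much rRNA passed the selection, and its part was not tested. The transcripts of the 13 proteins that this ribosome translates were read after the same selection, and no protein was measured. These transcripts were lower under baicalin in 9 of 13 cases in the basal label and 12 of 13 in the luminal label. Their median log2 changes were -0.29 and -0.35, where 50.9% and 45.6% of all genes were higher. Of the 13 transcripts, mt-Nd6 had the largest change, with 41.3 and 19.2 FPKM in the basal label and 78.8 and 30.3 FPKM in the luminal label. The next in size were mt-Nd5 in the basal label, at -0.45, and mt-Co2 in the luminal label, at -0.56.

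Among 13 regulators of mitochondrial biogenesis, 6 were higher under baicalin in the basal label and 7 in the luminal label, against 50.9% and 45.6% of all genes. Myc, a transcription factor that promotes ribosome and mitochondrial gene expression, had 37.7 and 81.5 FPKM in the basal label and 14.6 and 40.8 FPKM in the luminal label. Esrra, a nuclear receptor for oxidative metabolism, had 10.04 and 16.2 FPKM and 8.04 and 12.1 FPKM. Ppargc1b had 4.71 and 2.77 FPKM in the luminal label. Nrf1 and Gabpa, whose motifs stand in the promoters above, had log2 changes between -0.23 and -0.15 in both labels.

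Cytosolic ribosomal proteins and the nuclear genes of the respiratory chain give the values of the neighbouring translation and oxidation machinery. For comparison, 50.9% of all genes were higher under baicalin in the basal label and 45.6% in the luminal label. Under DMSO 52.5% of all genes were higher in the luminal label. Of 76 cytosolic ribosomal protein genes, 75 were higher under baicalin in the basal label, with a median of 0.43, and 21 in the luminal label, with a median of -0.04. Under DMSO all 76 were higher in the luminal label, with a median of 0.54, where mitochondrial ribosomal proteins had -0.07. The largest basal changes were those of Rps14, at 0.78, and Rps19, also at 0.78, and the largest luminal ones were those of Rpl17, at -0.82, and Rpl7a, at -0.75. Of 80 nuclear respiratory chain genes, 31 were higher in the basal label and 6 in the luminal label, with medians of -0.09 and -0.26. Their largest changes were those of low genes, Cox6b2 at 0.89 and Cox6c2 at -0.78 in the basal label and Cox4i2 at -1.99 and Cox7a1 at -0.99 in the luminal label. Under DMSO 75 of the 80 were higher in the luminal label, with a median of 0.36. The differences between these lists were not tested.

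**Figure D5:**
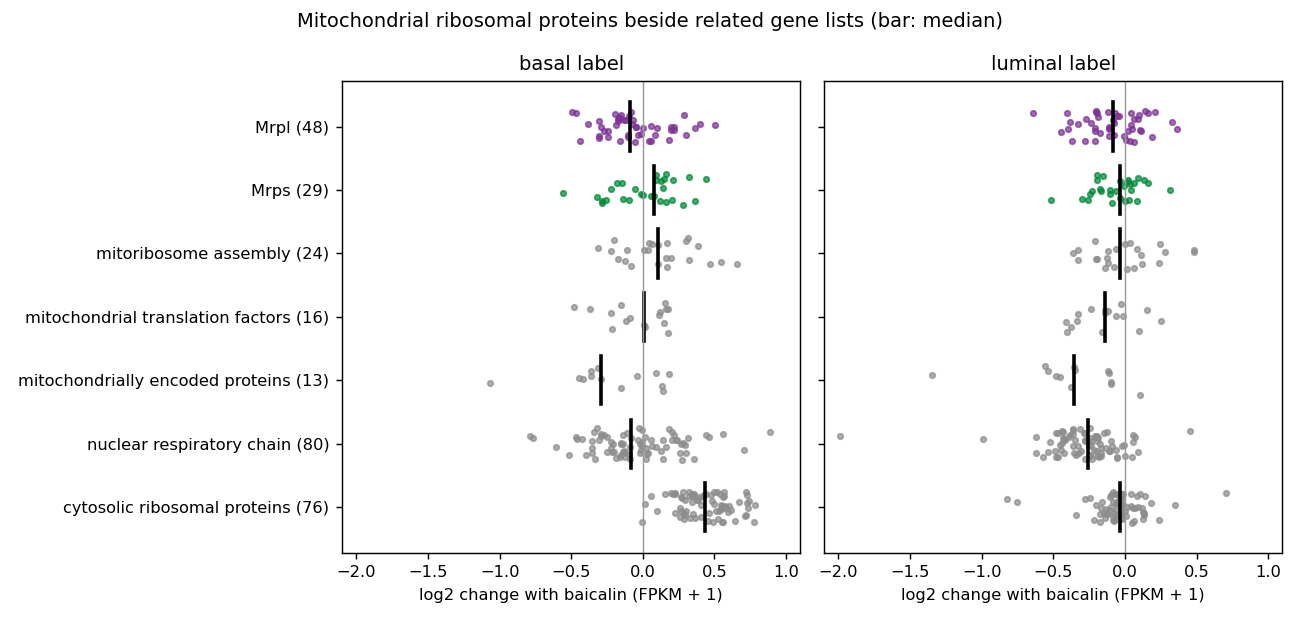
Log2 change with baicalin (FPKM + 1) in the basal label at left and the luminal label at right, 1 point per gene and 1 row per list, with the number of genes in brackets and a bar at the median. The Mrpl and Mrps rows stay within 0.65 of 0 in both panels. The median of cytosolic ribosomal proteins is 0.43 at left and -0.04 at right.

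Genes that start head to head with a member offered a further comparison, since such pairs lie on the same stretch of DNA. Some of these pairs also overlap. Of the exonic bases of Mrpl43, 33.4% overlap Twnk, and of those of Mrpl18, 10.1% overlap Tcp1, while Mrpl2 overlaps no gene. Reads of overlapping pairs cannot be told apart where strand was not used, and their part in the signs was not tested. Pairs with values numbered 32, with Mrps11 and Mrpl46 counted once from each side. Both genes of a pair had the same sign in 21 pairs for baicalin in the basal label, in 13 in the luminal label, in 15 between labels under DMSO and in 21 under baicalin. The share of same-sign pairs among other genes was not computed. The partners spread more widely than the members in the basal label, where 9 of the partners and none of the members passed 0.5 and 3 of the partners passed 1. Of all genes, 9.71% passed 0.5 upward, 9.54% downward and 5.48% passed 1 in that label. In the luminal label 4 partners and 2 members passed 0.5, and 0 partners passed 1. There 8.01% of all genes passed 0.5 upward and 8.29% downward. Mrpl57 and Ska3, which encodes a protein of the mitotic spindle and kinetochore, had log2 changes of 0.22 and -1.71 in the basal label. Mrpl51 and Ncapd2, a condensin subunit, had -0.30 and -2.06, and Mrpl27 and Eme1, a subunit of a DNA repair nuclease, had -0.38 and -1.37.

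Mrpl49 and Fau, which encodes a cytosolic small subunit ribosomal protein as a fusion, are 59 bases apart in the gene models of the counts. Fau had 195, 290, 287 and 299 FPKM, with basal and luminal log2 changes of 0.57 and 0.06, against -0.46 and -0.64 for Mrpl49. The bases between the RefSeq starts are printed for the pairs of Mrpl49 with Fau and Mrpl57 with Ska3, in which the partners differed in sign in the basal label, along the strand of the mitochondrial gene and with the same use of capitals. They are 191 bases at chr19:6057756-6057946 on the minus strand and 75 bases at chr14:57826164-57826238 on the plus strand of GRCm38.p6.
Mrpl49 to Fau: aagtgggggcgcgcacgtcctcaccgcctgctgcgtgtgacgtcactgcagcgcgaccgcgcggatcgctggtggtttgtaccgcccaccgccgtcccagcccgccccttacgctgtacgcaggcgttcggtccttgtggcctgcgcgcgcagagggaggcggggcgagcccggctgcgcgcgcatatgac
Mrpl57 to Ska3: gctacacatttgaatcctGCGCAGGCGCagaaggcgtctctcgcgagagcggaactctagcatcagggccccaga
The shorter stretch, between Mrpl57 and Ska3, holds 1 NRF1 match, and the longer one holds none of the letters searched with capitals.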

How the data were processed

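Processing notes of the submitters name GRCm38 and also mm8, with Bowtie 0.12.2. The methods describe HISAT2 alignment to GRCm38 with Ensembl release 94 and featureCounts. Whether strand was used in counting is not given in the sources used here, so reads of overlapping genes cannot be told apart. The authors deposited FPKM, which divides the fragments of a gene by its exonic length and by the library total, for 4 libraries. Fragments were recovered by multiplying FPKM with the exonic length of GENCODE M21 gene models, and between 98.8% and 98.9% of low genes came out whole within 0.05 fragments.

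Changes are log2 of the ratio of FPKM + 1 over the 17787 genes above 0 in every library. Ratios of recovered fragments carry 95% Clopper-Pearson intervals, which cover counting error only. "Past" refers to log2 changes of 0.5 or 1. Groups follow the labels, and scripts were tested on simulated data.

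The named genes are the 5 largest changes in each direction and comparison, the 5 highest and 5 lowest means, the Mrps18 paralogues, Mrps30 and Mrps36, members whose intervals lie on opposite sides in the labels and, for other lists, the 2 largest changes in each label. Members and lists were chosen with earlier results of these data known. Other libraries of the study were not analysed here. The work used scipy 1.17.1 for intervals, pandas 2.3.3 for tables and matplotlib 3.10.9 for plots, under Python 3.11.15.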

Additional observations from a re-analysis of the deposited data

Results flagged for a closer look

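Counting intervals of the baicalin over DMSO ratio lay on opposite sides of 1 in the labels for 4 members, each above 1 in the basal label and below 1 in the luminal label. That share is near the 5.4% of all genes with this pattern, and 7.2% of genes with at least 5 FPKM in every library had it. The difference between the labels was not tested, since each group is 1 library. For Mrpl24, at the exit tunnel, the luminal change minus the basal change was -0.49 on the log2 scale, with ratios of 1.22 (1.15 to 1.31) and 0.862 (0.807 to 0.919), and 26.3% of its exonic bases overlap Rrnad1 on the opposite strand. For Mrps31 the difference was -0.40, with ratios of 1.18 (1.03 to 1.34) and 0.847 (0.723 to 0.993). For Mrps23, another mitochondria-specific small subunit protein, it was -0.33, with 20.6 and 23.3 FPKM in the basal label and 24.8 and 22.0 FPKM in the luminal label. For Mrps5, near the mRNA entry of the small subunit, it was -0.33, with 7.61 and 8.48 FPKM in the basal label and 7.18 and 6.15 FPKM in the luminal label. The reverse pattern was found in 0 members, in 5.21% of all genes and in 8.1% of genes with at least 5 FPKM in every library.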

How the results depend on the processing

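Of 216 recomputed values, 24 moved, all of them counts of few members. The other 192 were counts within 1.5 times of the reported one and medians, or differences of medians, that moved by less than the typical counting error of 1 member (0.17 to 0.19 on the log2 scale), which is a wide limit for a median, and some of the differences near 0 changed sign. With a pseudocount of 0.1, and with none, 2 members were higher and 2 lower by more than 0.5 with baicalin in the basal label, 1 passed 1 between labels under DMSO and 1 was higher between labels under baicalin. Among genes with at least 5 FPKM, those counts were 0 higher in the basal label, 1 lower in the luminal label, 1 higher between labels under DMSO and 1 lower under baicalin. Rescaled to TPM, 3 members were lower against 1 higher in the basal label, and 10 were lower against 2 higher between labels under DMSO, where 1 passed 1. Centred on the median of all genes, 0 were higher and 2 lower in the basal label, 1 lower in the luminal label and 1 higher between labels under baicalin. Among the 33 members without an overlapping gene or near-identical copy, 0 were higher and 0 lower in the basal label, 0 lower in the luminal label, and 0 higher and 3 lower between labels under DMSO. Fewer members were tested in the second and last of these; for the rest the cause was not tested. The Mrps minus Mrpl difference in the basal label lay between 0.16 and 0.19 in all alternatives, but that in the luminal label lay between -0.02 and 0.06 and those between labels between -0.07 and 0.08, with changes of sign. The Mrpl median between labels under DMSO lay between -0.18, after rescaling to TPM, and -0.01. Leaving out a replicate was not possible with 1 library per group. No paired analysis was possible because each group is 1 library and no test was made. Members rest on between 140 and 1994 fragments in a library, and the fewest were those of Mrps18c, which limits its precision.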
